A study of Mus musculus with 3 samples.

Results

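Germ cells that express genes of meiotic prophase were examined in the ovary of the mouse at embryonic day 16.5. They were chosen by their own mRNA: cells with 200 or more detected genes, with Sycp1, Syce2, Syce3, Dazl and Taf7l together at 10 or more per 10000 counts (the germ score), and with 4 adult globin genes under 10% of counts. The rule found 74 cells among the 456 cells kept in that library (16.2%; exact Clopper-Pearson 95% interval 13.0 to 19.9) and among 1548 cells in the whole series. The series holds 3 libraries of wild-type ovaries from C57BL/6 females, with no treatment named, 1 from embryonic day 16.5 (day 17 in its title), 1 from postnatal day 7 and 1 from postnatal day 14. Collagenase and a 40 μm filter gave suspensions for droplet capture (Chromium 3′ kit), in which mRNA molecules are counted by unique molecular identifiers (UMIs). The labels give mixed cells and describe no sort, and digestion and filtering can set the share of germ cells. The labels do not say how many animals went into the library.

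In the mouse ovary, germ cells stop dividing before birth and enter meiosis, in which homologous chromosomes pair, are cut and are repaired as crossovers. Retinoic acid switches on Stra8, a regulator of meiotic entry, together with Rec8, a cohesin subunit that holds sister chromatids together. The paired chromosomes are then joined by the synaptonemal complex, a protein zipper with axial elements, transverse filaments and a central element, and the cells rest as oocytes until they grow in follicles after birth.

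The 74 germ cells were set against the 243 cells of the library that missed the germ score and had globins under 10%. The 139 globin-rich cells are given beside them. With a median of 1975 detected genes they are not a measure of free RNA alone. With 1 library there is no test. Levels are UMIs summed over the cells of a set, scaled to 1000000 (CPM), with exact Poisson 95% intervals in brackets, and ratios carry exact binomial 95% intervals. These cover counting error alone, not the spread between animals. Germ cells held a median of 14466.5 UMIs (6918 to 47388) and 3933 detected genes. The other cells held a median of 14564 UMIs and the globin-rich cells 15560. The globins of red blood cells were at 0.254 to 1.10% of UMIs in every germ cell (median 0.566%) and at a median of 0.565% in other cells, a measure of the free RNA in the droplets. No cell barcode was shared between any pair of the 3 libraries (0, 0 and 0).

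Cells lay close to the limit of the germ score on both sides. Among cells with globins under 10%, 7 scored from 5 to under 10 per 10000 and 9 from 10 to under 20. The highest scores outside were 7.98, 8.17, 8.65, 9.18 and 9.27 per 10000, and the lowest inside were 11.2, 11.4, 12.4, 15.6 and 16.4. Of the germ cells 65 scored 20 or more, with a highest score of 71.8 and a median of 40.2. No cell that met the score was lost to the globin limit.

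**Figure D1:**
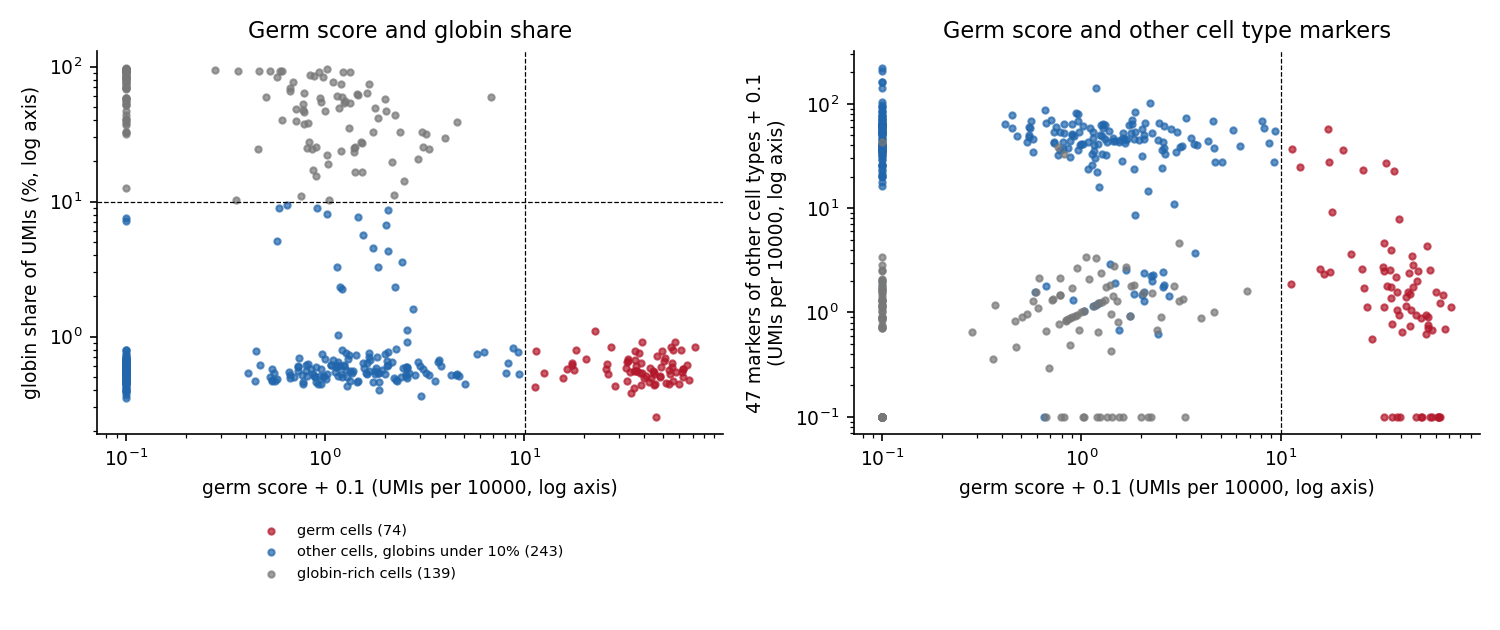
Each point is 1 of the 456 kept cells of the embryonic library. The horizontal axes give the germ score and the vertical axes the globin share (left) and the summed level of 47 markers of other cell types (right), all on log axes with 0.1 added to scores and marker sums. Dashed lines mark the limits of the rule. The 74 germ cells lie right of the limit and all have globins of at most 1.10%, while 8 of them have other markers at 22.8 or more per 10000.

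Germ line markers were high in the set as a whole, with exceptions in single cells. The 10 germ cell markers, 5 of which the rule used, summed to 6416 CPM in germ cells, 177 CPM in other cells and 111 CPM in globin-rich cells. The 47 markers of pregranulosa, surface epithelium, stroma, steroidogenic, smooth muscle, endothelial and immune cells had a median of 1.38 per 10000 (0 to 57.6) in germ cells and 44.6 (0 to 219.7) in other cells. By this sum, 8 germ cells lay between 22.8 and 57.6 and the other 66 at 9.04 or less. Those 8 had a median of 24037.5 UMIs, against 14092.5 in the other 66, and held all 31 UMIs of Foxl2, the transcription factor of pregranulosa cells. No doublet caller was run, so these 8 barcodes were kept. They hold much of what germ cells show of somatic genes, and levels over the 66 other germ cells are given beside those genes. Msln, Upk1b, Cyp17a1, Cspg4, Rgs5, C1qa and Csf1r, markers of surface epithelium, steroidogenic cells, pericytes and macrophages, were at 0 UMIs in all germ cells.

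DNA before the RefSeq start of 4 genes is shown first, since their mRNAs differ among the germ cells in what follows. Stra8 and Rec8 are high together, and Sycp1 and Syce3 are high where Stra8 is low. All sequences come from RefSeq (GRCm38.p6), read 5′ to 3′ on the gene's strand within the 250 bases before its RefSeq start. Capitals mark CCAAT, the core of the box bound by NF-Y (ATTGG on the opposite strand), and CACGTG, a palindromic E-box. The Stra8 line is a stretch of 30 bases at chr6:34920812-34920841 (+ strand), because the whole of its window is exonic in GENCODE M21. The RefSeq start used here lies 785 bases past the GENCODE start of Stra8, so that window lies inside the annotated gene. For Rec8 it lies 129 bases past the GENCODE start, and 129 bases of the window are exonic. The Rec8 line is the 121 bases at chr14:55617916-55618036 (+) that lie before any annotated exon. The Sycp1 line is chr3:102936101-102936350 (−) and the Syce3 line chr15:89410504-89410753 (−), both 250 bases.
Stra8: tcaCCAATgtccacgctccccATTGGcgcc
Rec8: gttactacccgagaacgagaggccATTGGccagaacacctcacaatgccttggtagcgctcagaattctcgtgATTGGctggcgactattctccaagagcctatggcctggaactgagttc
Sycp1: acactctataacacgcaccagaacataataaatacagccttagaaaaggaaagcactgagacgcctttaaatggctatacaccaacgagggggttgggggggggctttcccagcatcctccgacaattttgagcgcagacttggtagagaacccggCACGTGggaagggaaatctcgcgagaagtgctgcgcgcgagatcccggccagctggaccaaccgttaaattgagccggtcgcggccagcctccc
Syce3: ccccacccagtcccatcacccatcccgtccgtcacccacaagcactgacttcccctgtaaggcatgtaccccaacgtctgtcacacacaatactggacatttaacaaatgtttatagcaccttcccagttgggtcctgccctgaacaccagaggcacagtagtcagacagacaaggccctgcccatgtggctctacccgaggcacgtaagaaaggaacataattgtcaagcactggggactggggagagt
Over the full 250 bases before the RefSeq start, CCAAT on either strand occurred 4 times for Stra8 and 3 times for Rec8. It occurred 0 times for Sycp1 and Syce3. The counts for Stra8 and Rec8 thus include exonic bases of those genes. CACGTG occurred 1 time before Sycp1 and 0 times before the other 3 genes. Of 32851 RefSeq windows of the same length, 33.8% held CCAAT and 6.02% held CACGTG. Of the 51 genes in the 4 lists of meiotic chromosome and recombination genes, 41 had a window; 46.3% of these genes had CCAAT and 22.0% CACGTG, against 37.5% and 6.86% of all 27025 symbols. AGGTCA, the core that nuclear receptors bind, occurred 2 times on either strand in the exonic window of Stra8 and 0 times in the other 3. It was found for 17.1% of the listed genes and 15.8% of all symbols. GCGGGAA, the core that E2F factors bind, was found on either strand for 22.0% of the listed genes and 4.38% of all symbols. The motifs were chosen after the windows had been read, and a match is a description of these letters only.

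Meiotic chromosome genes set the germ cells apart from the rest of the ovary. Of 14974 genes with 10 or more UMIs over both sets, 10.3% were at least 2-fold higher in germ cells and 12.1% at least 2-fold lower, on a scale of log2(CPM + 10) whose median over all genes was −0.11. Cells chosen by expression must differ in expression, and a gene can pass the filter through the germ cells alone, so the counts below describe the cells and test nothing. Of the 9 listed synaptonemal complex genes 8 passed the filter (Sycp2l did not) and all 8 were past 2-fold higher, 5 of them not used by the rule. The median log2 ratio of those 5 was 4.93.

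Sycp3, a protein of the axial element, had 1358 CPM (95% interval 1293 to 1426) in germ cells and 26.9 CPM (22.6 to 31.7) in other cells. It was detected in all 74 germ cells, at a median of 13.4 per 10000 (0.590 to 37.6). When every cell was thinned to 5000 UMIs, 72 of 74 germ cells (97.3%) held Sycp3. So did 17 of 243 other cells (7.00%) and 9 of 139 globin-rich cells (6.47%), shares close to each other. The source of this RNA in other cells was not tested. Unthinned, the counts were 74, 56 and 28 cells. Sycp3 overlaps Chpt1 on the opposite strand. The other axial gene, Sycp2, had 127 CPM (95% interval 107 to 148) in germ cells and 2.69 CPM (1.47 to 4.51) in other cells.

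The zipper's inner parts followed the same order. Sycp1, the transverse filament and a rule gene, had 861 CPM in germ cells and 14.8 CPM in other cells. Of the central element, Tex12 had 803 CPM (95% interval 753 to 856) in germ cells and 16.7 CPM (13.4 to 20.6) in other cells, and 4930447C04Rik, also called Six6os1, had 929 CPM in germ cells and 16.1 CPM in other cells. Syce1 stood at 247 CPM in germ cells and 5.96 CPM in other cells. The rule genes Syce2 and Syce3 had 874 and 705 CPM in germ cells and 84.0 and 14.0 CPM in other cells. Syce2 was thus counted outside the germ cells, in 132 of 243 other cells, and it overlaps Gcdh on the opposite strand.

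Cohesins and the proteins that tie chromosomes to the axis and the nuclear envelope formed the next group, with 9 of 12 listed genes past 2-fold higher, 0 past 2-fold lower and a median of 2.29. Smc1b, the meiotic cohesin subunit, was at 1844 CPM in germ cells and 23.1 CPM in other cells, a ratio of 80.0 (66.5 to 96.9), and had a median of 20.2 per 10000 (0 to 39.9) over the germ cells. Thinned to 5000 UMIs, 73 of 74 germ cells held it (98.6%), against 19 of 243 other cells (7.82%) and 4 of 139 globin-rich cells (2.88%). Stag3, another cohesin subunit, had 266 CPM in germ cells and 4.80 CPM in other cells, and Hormad1, which loads on unpaired axes, 289.7 and 3.84 CPM in the same order of cells. Rec8 had 78.2 CPM (95% interval 63.2 to 95.7) in germ cells and 23.8 CPM (19.8 to 28.4) in other cells, and 24 of 74 germ cells, 59 of 243 other cells and 4 of 139 globin-rich cells held a UMI of it. Rec8 was thus not limited to germ cells, and among germ cells with a score of 20 or more its log2 ratio was 0.85, short of 2-fold. Rad21l, a cohesin subunit related to Rec8, had 12 UMIs in germ cells and 0 in other cells. Majin, Terb1 and Terb2, which attach telomeres to the envelope, had 53.3, 107 and 33.3 CPM in germ cells and 0.576, 2.88 and 0.769 CPM in other cells.

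Genes for breaking and repairing DNA were also higher in germ cells. All 8 listed genes of double strand break formation were past 2-fold higher, with a median of 2.14. Spo11, the enzyme that cuts, had 73.2 CPM (95% interval 58.7 to 90.2) in germ cells and 2.11 CPM (1.06 to 3.78) in other cells, from 88 UMIs in 48 germ cells. Prdm9, the histone methyltransferase that marks the places to be cut, had 147 CPM in germ cells and 3.84 CPM in other cells. Ankrd31 and Rec114, which work with Spo11, stood at 81.6 and 69.1 CPM in germ cells and at 1.73 and 6.15 CPM in other cells; Rec114 also had 103 CPM in globin-rich cells.

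Of 22 listed recombination and crossover genes, 18 were past 2-fold higher and 0 past 2-fold lower, with a median of 1.86; Spata22 did not pass the filter. Dmc1, the meiotic strand exchange protein, had 169 CPM (95% interval 147 to 194) in germ cells and 4.23 CPM (2.65 to 6.40) in other cells, and UMIs in 60 germ cells. Tex15, which takes part in loading it, had 325 CPM in germ cells and 8.07 CPM in other cells. Hsf2bp, a partner of Brca2, had 164 and 3.46 CPM in that order, Hfm1, a crossover helicase, 151 and 2.88 CPM, and Meiob, which binds single-stranded DNA, 99.9 and 2.31 CPM.

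Of 9 regulators of meiotic entry 6 were past 2-fold higher and 0 lower, and Gm4969 and Zglp1 did not pass the filter. Stra8 had 606 CPM (95% interval 563 to 652) in germ cells and 4.61 CPM (2.95 to 6.86) in other cells, with UMIs in 50 of 74 germ cells; thinned to 5000 UMIs the counts were 42 germ cells (56.8%), 6 other cells (2.47%) and 2 globin-rich cells (1.44%). Meioc, which works with the RNA helicase Ythdc2 in the exit from mitosis, had 143 CPM in germ cells and 2.50 CPM in other cells, and Ythdc2 44.9 and 11.3 CPM. Taf4b, a TFIID subunit needed in the ovary, had 103 CPM in germ cells and 2.69 CPM in other cells. Gm4969, also called Meiosin, the partner of Stra8, had 8 UMIs in germ cells and 1 in other cells.

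**Figure D2:**
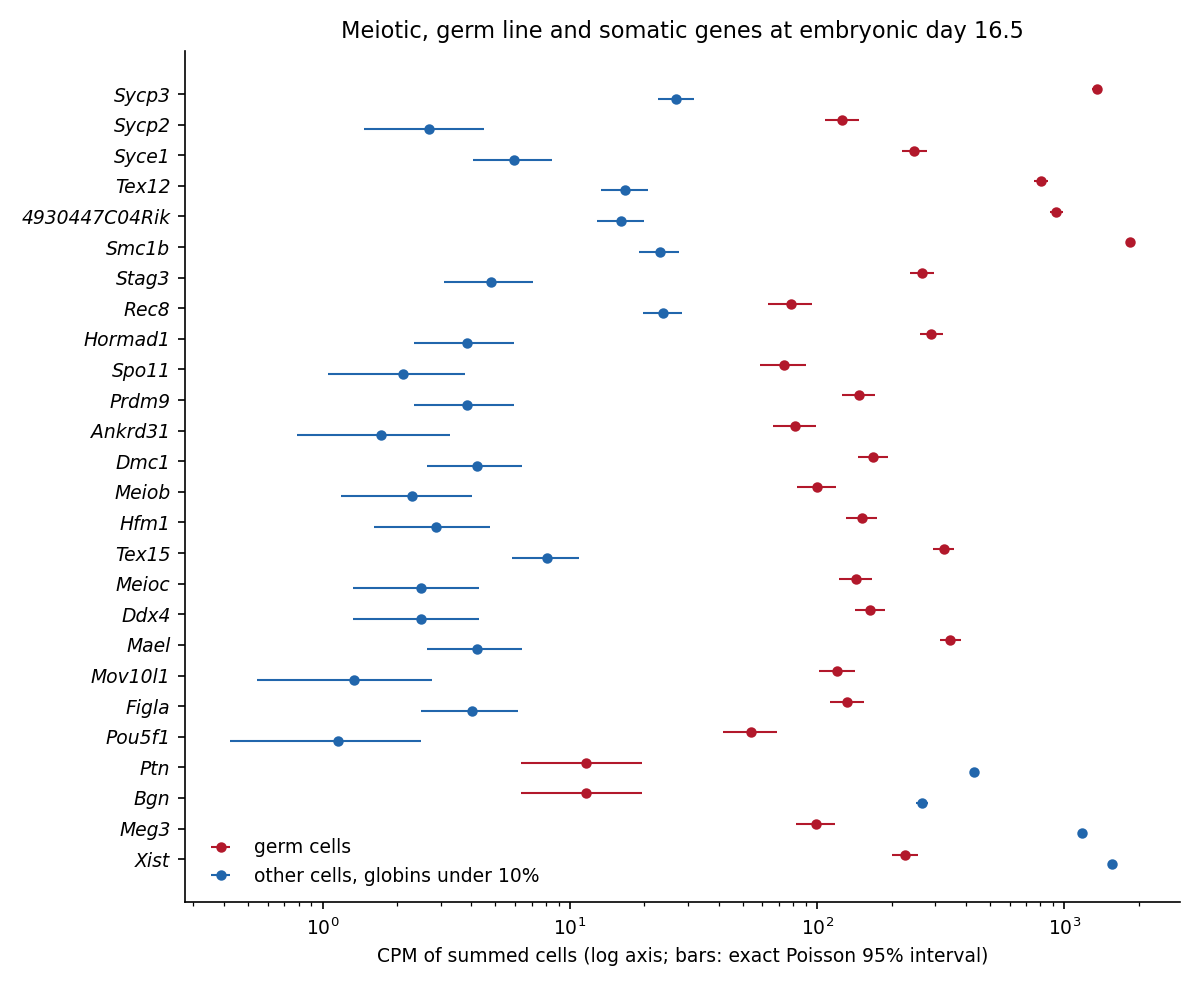
Level in germ cells (red) and in other cells with globins under 10% (blue) for 26 genes, in CPM of summed cells on a log axis; bars are exact Poisson 95% intervals. Smc1b stands at 1844 CPM in germ cells and 23.1 CPM in other cells, while Ptn, Bgn, Meg3 and Xist stand higher in other cells.

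Transposon defence by piRNAs, the small RNAs that silence mobile elements in the germ line, was the other large germ line group. Of 16 listed genes 12 were past 2-fold higher and 0 lower, with a median of 2.70, and Piwil4 and Tdrd6 did not pass the filter. Mael had 346 CPM (95% interval 314 to 381) in germ cells and 4.23 CPM (2.65 to 6.40) in other cells. Mov10l1, the helicase of piRNA production, had 121 CPM in germ cells and 1.35 CPM in other cells, Gtsf1 99.0 and 1.35 CPM, Asz1 74.1 and 0.961 CPM, and Piwil2 50.8 and 0.961 CPM. Of 12 genes of germ cell identity 9 were past 2-fold higher and 0 lower, 2 of them used by the rule. Ddx4, the germ cell RNA helicase, had 164 CPM (95% interval 142 to 189) in germ cells and 2.50 CPM (1.33 to 4.27) in other cells. The largest ratios on the log scale among genes outside the rule also included Tex101, a germ cell surface protein, with 799 CPM in germ cells and 18.4 CPM in other cells, Stk31 with 383 and 6.34 CPM, and the tubulin gene Tuba3a with 285 and 2.69 CPM. Tuba3a has near-identical copies, so its level is uncertain.

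Genes of later oocytes were mostly at or near 0. Of 19 listed genes 4 were past 2-fold higher (Figla, Sohlh2, Ybx2 and Uchl1), 0 were lower and 13 did not pass the filter, among them Zp1, Zp2, Gdf9 and Nlrp5 at 0 UMIs in germ cells, which allows up to 2.50 CPM, and Zp3 at 1 UMI. Figla, the transcription factor that switches on the egg coat genes, had 132 CPM (95% interval 113 to 155) in germ cells and 4.04 CPM (2.50 to 6.17) in other cells, with UMIs in 60 germ cells. Sohlh2 had 57.4 CPM in germ cells and 0.961 CPM in other cells, and Ybx2, which binds stored mRNA, 95.7 and 2.88 CPM. Nobox was counted 4 times in germ cells and 0 times in other cells.

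Pluripotency genes of the earlier primordial germ cells had low counts in germ cells. Pou5f1 was held by 22 of 74 germ cells (29.7%). Pou5f1 had 54.1 CPM (95% interval 41.8 to 69.0) in germ cells and 1.15 CPM (0.423 to 2.51) in other cells. The RNA-binding gene Lin28a had 15 UMIs in germ cells and 0 in other cells. Nanog had 0 UMIs in germ cells and 4 in other cells. Of 13 listed genes 5 were past 2-fold higher (Pou5f1, Utf1, Lin28a, Dppa4 and Zfp42), 1 (Klf2, which endothelial and other somatic cells also express) was past 2-fold lower and 5 did not pass the filter.

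Genes of somatic cells made up the lower side. Ptn, a growth factor of stroma, was at 11.7 CPM (6.37 to 19.6) in germ cells and 432 CPM (414 to 450.2) in other cells. Bgn and Dcn, small matrix proteoglycans, had 11.7 and 9.16 CPM in germ cells against 266 and 215 CPM in other cells. Mfap2, Igfbp7, Igfbp4, Gng11, Mgp, Sparc and Tcf21, with the imprinted Meg3 and Dlk1, made up the 12 lowest. The first 7 lay between 2.50 CPM (Gng11) and 97.4 CPM (Sparc) in germ cells. Over the 66 germ cells without high markers of other types Ptn was at 6.92 CPM, Bgn at 4.94, Dcn at 2.97 and Sparc at 50.4 CPM. Of 16 listed retinoic acid genes 3 were past 2-fold lower, among them Aldh1a1 and Aldh1a2, which make retinoic acid, and 0 were higher.

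Imprinted genes, which are read from 1 parental copy in most tissues, were mainly lower: 15 of 22 were past 2-fold lower and 1 higher, with a median of −1.25. Meg3 had 99.0 CPM (95% interval 82.1 to 119) in germ cells and 1179 CPM (1149.9 to 1209) in other cells. Dlk1 had 32.5 CPM in germ cells and 411 CPM in other cells, Mest 51.6 and 475 CPM, and Cdkn1c 151 and 607 CPM. H19 stood at 396 CPM in germ cells and 1599 CPM in other cells. Much of this came from the 8 cells with high markers of other types: over the 66 others Meg3 was at 18.8 CPM, Mest at 12.9 CPM and H19 at 65.3 CPM. Phlda2, a placental growth regulator, went the other way, with 63.3 CPM in germ cells and 1.15 CPM in other cells, and is taken up again below.

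Cell cycle genes did not lie on one side. Of 20 listed S phase genes 2 were past 2-fold higher (Prim1 and Ccne2) and 2 lower (Tyms and Rrm2). Of 20 G2 and M phase genes 3 were higher and 5 lower: Bub1, a spindle checkpoint kinase, had 161 CPM in germ cells and 11.1 CPM in other cells, while Aurkb, the kinase of mitotic chromosomes, had 3.33 and 30.4 CPM. Among cell cycle inhibitors Cdkn2a had 121 CPM (95% interval 102 to 142) in germ cells and 1.73 CPM (0.791 to 3.28) in other cells; 2 of 7 inhibitors were past 2-fold higher (Cdkn2a and Cdkn2d) and 2 lower (Cdkn1b and Cdkn1c). Of 19 apoptosis and quality control genes 3 were higher (Chek1, Atm and Atr) and 5 lower. The DNA damage kinases Atr and Atm stood at 226 and 59.1 CPM in germ cells and at 20.4 and 8.45 CPM in other cells, and Trp53, the tumour suppressor, at 23.3 CPM in germ cells (13.8 CPM in the 66 without high markers of other types) and 119 CPM in other cells. DNA methylation genes gave 0 of 8 past 2-fold higher and 2 lower; Dnmt3a, which sets new methylation, had 27.5 CPM in germ cells (12.9 CPM in the 66) and 105 CPM in other cells, and its cofactor gene Dnmt3l had 0 UMIs in both.

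Fewer early response genes, which dissociation can induce, were counted in germ cells: 11 of 15 were past 2-fold lower and 0 higher. Fos was at 370.4 CPM in germ cells and 1291 CPM in other cells, and Jun at 132 and 575 CPM. Over the 66 germ cells without high markers of other types Fos was at 76.2 CPM and Jun at 21.8 CPM. Of 15 BMP pathway genes Id2 and Id3 were past 2-fold lower and 0 higher. Among 13 contact and signalling genes Epcam, an adhesion protein, was past 2-fold higher, at 41.6 CPM in germ cells and 5.76 CPM in other cells, and Kitl, Gja4 and Gja1 were past 2-fold lower. Kitl, the ligand that supporting cells present to oocytes, had 52.4 CPM in germ cells and 176 CPM in other cells, and its receptor gene Kit 13.3 and 13.5 CPM. Kitl was at 5.93 CPM, from 6 UMIs, in the 66 germ cells.

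Female germ cells are known to carry an active pair of X chromosomes around meiotic entry, whereas Xist RNA coats the silent X of somatic cells. Xist had 227 CPM (95% interval 201 to 256) in germ cells and 1563 CPM (1529 to 1597) in other cells. It was found in 26 of 74 germ cells and 238 of 243 other cells, and 5 germ cells held 202 of the 273 UMIs. All 5 carried markers of other cell types at 23.1 or more per 10000; the 8 cells with high markers held 243 UMIs, and without them Xist was at 29.7 CPM, from 30 UMIs in 18 of 66 germ cells. Globin-rich cells had 546 CPM. Xist overlaps the antisense gene Tsix.

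X-linked genes other than Xist took 4.50% (4.47 to 4.54) of the UMIs on X and autosomes in germ cells and 3.93% (3.91 to 3.94) in other cells. Taf7l, a rule gene, is X-linked and gave 667 of the 53358 X-linked UMIs in germ cells. Part of the higher share was thus set by the rule. Per cell the share had a median of 4.52% (3.32 to 5.89) in germ cells and 4.04% (3.00 to 6.65) in other cells, so both ranges overlapped. Genes past 2-fold higher in germ cells were not spread evenly: 21.5% of 562 X-linked genes were past 2-fold higher, against 9.93% of 14381 autosomal genes. Past 2-fold lower were 14.2% of the X-linked and 12.1% of the autosomal genes. Without all genes past 2-fold higher the shares were 3.79% (3.75 to 3.83) in germ cells and 3.91% (3.90 to 3.93) in other cells. Without genes past 2-fold in either direction they were 3.77% (3.73 to 3.81) and 3.66% (3.64 to 3.68) in the same order. The first removal took out genes picked in these same data for being higher in germ cells, and such genes were more common on the X. A fall of the germ cell share was thus built into it, and the reversed order cannot be read as a result. Both of these alternatives were chosen after seeing the data.

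Within the germ cells Stra8 ran from 0 to 33.6 per 10000, with a median of 2.04; 24 of 74 had no UMI. The 37 cells at or above the median are called Stra8-high (median 9.93) and the 37 below it Stra8-low (0 to 1.99, median 0). Stra8 itself set this split and its ratio is no result. Stra8-high cells were deeper, with a median of 16422 UMIs against 12680 in Stra8-low cells, and the part of depth in what follows was not tested. The germ cell markers summed to 6426 CPM in Stra8-high cells and 6404 CPM in Stra8-low cells. Pregranulosa markers summed to 513 CPM in Stra8-high and 273 CPM in Stra8-low cells, with 5 and 3 cells at 10 or more per 10000 of other markers, and their part was not tested either.

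Rec8, the other gene of meiotic entry, went with Stra8. Of its 94 UMIs 92 were in Stra8-high cells and 2 in Stra8-low cells, which gives 136 CPM (109 to 166) in Stra8-high cells and 3.82 CPM (0.463 to 13.8) in Stra8-low cells. Thinned to 5000 UMIs, 15 of 37 Stra8-high cells (40.5%; 24.8 to 57.9) and 0 of 37 Stra8-low cells (0%; up to 9.49) held Rec8. Among 4718 genes found in at least 30% of the germ cells, the 8 whose level per cell ran most like Stra8 (Spearman rho over 74 cells) were Mif (0.77), Snrpb (0.72), Tuba3a (0.72), Ndufa3 (0.69), Dppa5a (0.69), Atpif1 (0.68), Rec8 (0.67) and Thyn1 (0.65). The median gene had 0.05 and the middle 90% lay between −0.25 and 0.37. These points share 1 library and vary in depth, so the values are descriptions.

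Of 9291 genes tested between Stra8-high and Stra8-low cells, 4.08% were past 2-fold higher and 2.83% past 2-fold lower, with a median of 0.03. These counts changed when the 8 cells with markers of other types were left out and the Stra8 median was set anew over the 66. The resulting 33 Stra8-high and 33 Stra8-low cells gave 411 genes past 2-fold higher and 406 lower. The parts of the removal and of the new split were not tested. That new split holds below wherever these 8 were left out. Genes of the late primordial germ cell led the higher side. Dppa3, a maternal factor of germ cells, had 219.8 CPM (186 to 258) in Stra8-high cells and 30.6 CPM (17.5 to 49.6) in Stra8-low cells. Dppa5a had 341 CPM (298 to 388) in Stra8-high cells and 76.4 CPM (54.6 to 104) in Stra8-low cells, and Pou5f1 55 UMIs in Stra8-high cells and 10 in Stra8-low cells. The X-linked homeobox genes Rhox5 and Rhox9 stood at 204 and 223 CPM in Stra8-high cells and at 24.8 and 40.1 CPM in Stra8-low cells; the Rhox cluster holds similar copies, so reads may be shared. Ifitm1 had 323 CPM in Stra8-high and 51.6 CPM in Stra8-low cells, and Phlda2 102 and 13.4 CPM. Of 13 primordial germ cell and pluripotency genes, 5 were past 2-fold higher (Pou5f1, Sox2, Lin28a, Dppa4 and Klf2), 0 lower and 6 did not pass the filter, with a median of 1.16. The cells were also split by whether a Stra8 UMI was left after thinning to 5000 UMIs, while levels came from the full counts. On that split the list had a median of −0.030, Dppa3 0.60, Dppa5a 0.98 and Rhox9 0.56 on the log2 scale. These ratios are thus not at equal depth. Klf2, with 39 UMIs in Stra8-high and 7 in Stra8-low cells, had 6 and 4 in the 66 germ cells without high markers of other types, a log2 ratio of 0.10.

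A few cells carried much of that. Dppa3 was counted 10 or more times in 6 germ cells, a line drawn after its values were seen. These 6 held 11.5% of the germ cells' UMIs but 111 of 165 Dppa3 UMIs, 42 of 65 of Pou5f1, 22 of 27 of Sall4, another pluripotency factor, and 72 of 76 of Phlda2. Cell by cell, from most to least Dppa3 (32, 20, 19, 19, 11 and 10 UMIs) they held 16, 19, 50, 26, 22 and 0 UMIs of Stra8. Sycp3 gave 6, 1, 15, 4, 7 and 1 UMIs in the same cells, and Syce3 2, 1, 2, 1, 4 and 0. In the other 68 germ cells the median was 21 UMIs for Sycp3 and 10 for Syce3. Sycp3 was thus at 245 CPM in the 6 cells and 1503 CPM in the 68, and Sycp1 at 231 and 944 CPM. Dazl, a germ line gene of the rule, stood near the same level, at 874 CPM in the 6 and 801 CPM in the 68. Their germ scores ran from 11.2 to 26.1, against a median of 43.0 in the 68. Smc1b was at 888 CPM in the 6 and 1968 CPM in the 68. The library's other cells had 23.1 CPM of Smc1b and 26.9 CPM of Sycp3. The label of meiotic germ cells thus describes these 6 less well than the 68. Against the 68, primordial germ cell genes were high and synaptonemal genes low, while 5 of 6 held Stra8 and Rec8. The cell with 10 Dppa3 UMIs held 0 UMIs of Stra8, Rec8 and Smc1b.

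Without those 6 cells Stra8-high cells were still the higher for Dppa3, Dppa5a and Rec8. Pou5f1, Rhox5 and Rhox9 also stayed past 2-fold higher in Stra8-high cells. Dppa3 was then at 87.6 CPM in 32 Stra8-high cells and 11.6 CPM in 36 Stra8-low cells, a ratio of 7.52 (3.21 to 21.5). Dppa5a had 241 CPM in Stra8-high and 36.9 CPM in Stra8-low cells, and Rec8 106 and 3.88 CPM. Sox2, Lin28a, Dppa4 and Sall4 were short of 2-fold without them, at log2 ratios of 0.63, 0.59, 0.53 and 0.94. Phlda2 was down to 3 and 1 UMIs, a ratio of 2.82 whose interval of 0.226 to 148 spans equality.

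**Figure D3:**
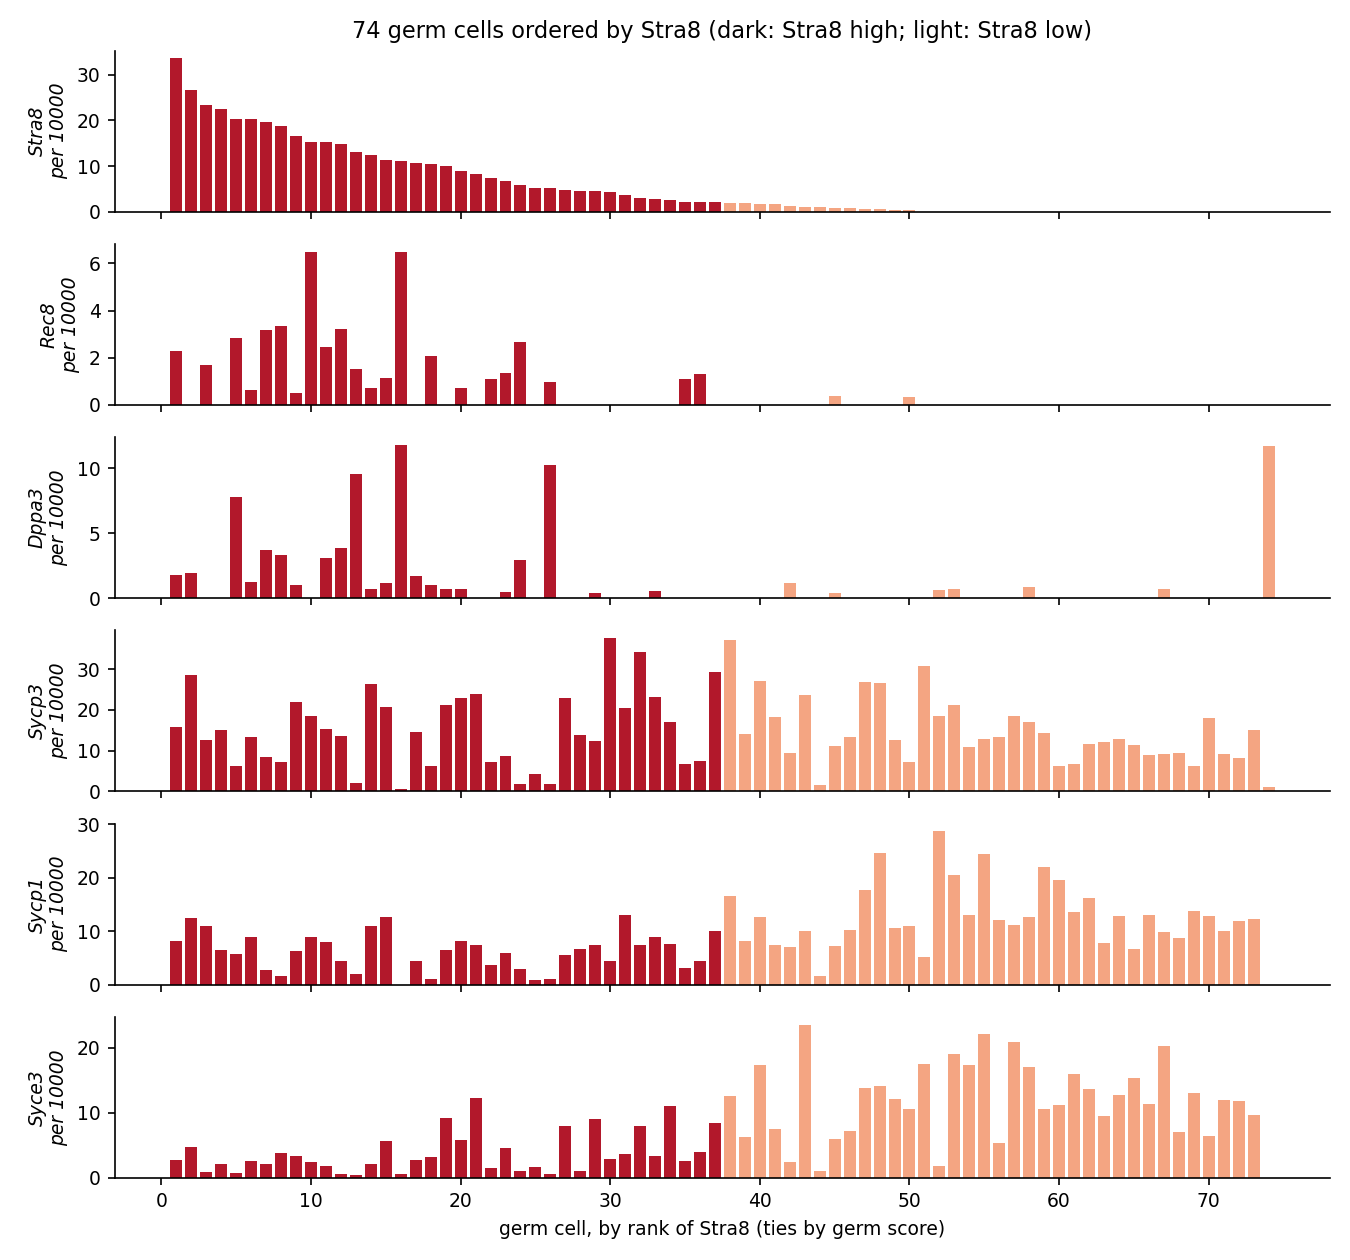
Each bar is 1 of the 74 germ cells, ordered by Stra8 with the highest at the left; dark bars are the 37 Stra8-high and light bars the 37 Stra8-low cells, and the vertical axes give UMIs per 10000. Rec8 and Dppa3 lie mostly on the left, Sycp1 and Syce3 are taller on the right, and Sycp3 has no such slope; the last cell at the right, with 0 Stra8, has Dppa3 at 11.7 per 10000 and little of the synaptonemal genes.

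Other genes higher with Stra8 had several roles. Msx1 and Msx2, homeobox factors of the BMP pathway that take part in meiotic entry, had 53.1 and 29.5 CPM in Stra8-high cells and 7.64 and 5.73 CPM in Stra8-low cells. Id3, a BMP target, had 320.1 CPM in Stra8-high cells and 118 CPM in Stra8-low cells. Dnmt1, the maintenance DNA methyltransferase, stood at 125 CPM in Stra8-high and 36.3 CPM in Stra8-low cells, and of 8 DNA methylation genes it was the 1 past 2-fold higher, with Uhrf1 the 1 past 2-fold lower. The inhibitors Cdkn1a, Cdkn2a and Cdkn2d had 35.4, 173 and 106 CPM in Stra8-high cells and 5.73, 53.5 and 34.4 CPM in Stra8-low cells, while Cdkn2c was past 2-fold lower (−1.07; −0.77 without the 8 cells with markers of other types). Of 20 S phase genes 3 were past 2-fold higher (Mcm7, Tyms and Rrm1) and 0 lower; without the 6 cells rich in Dppa3 these 3 had log2 ratios of 0.87, 0.93 and 0.80. Mif, a secreted cytokine, had 788 and 193 CPM, and Ptov1, Psme2 and Cox7a1 were the others among the 12 highest. Of 22 imprinted genes 6 were past 2-fold higher (H19, Mest, Peg3, Snrpn, Phlda2 and Kcnq1ot1) and 0 lower. Without the 8 cells with markers of other types H19 was at 68.1 CPM in Stra8-high and 61.6 CPM in Stra8-low cells, Mest at 10.5 and 16.0 CPM and Peg3 at 57.6 and 68.5 CPM, so those 3 differences were not seen in the rest. The other 3, Phlda2, Snrpn and Kcnq1ot1, stayed past 2-fold higher there, at log2 ratios of 2.33, 2.00 and 1.81. Rec8, Dppa3, Syce3 and Spo11 kept log2 ratios of 3.59, 2.60, −1.57 and −1.24 without the same 8 cells.

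On the other side 2 of the 8 tested synaptonemal genes, both used by the germ score, were past 2-fold lower in Stra8-high cells, and the other 6 were short of 2-fold. Syce3 had 369 CPM (325 to 417) in Stra8-high cells and 1140.2 CPM (1051 to 1235) in Stra8-low cells, and Sycp1 568 CPM (513 to 628) in Stra8-high cells and 1241 CPM (1148 to 1341) in Stra8-low cells. Sycp1 lay close to 2-fold, at a log2 ratio of −1.11. It was short of 2-fold at −0.62 with a germ score of 5 or more and at −0.85 with 20 or more. The same held without germ cells above the 95th percentile of total UMIs (−0.92) and without the 6 cells rich in Dppa3 (−0.96). With any Stra8 UMI against none it was at −0.94, or −0.83 with that split set after thinning. Syce3 was at −0.99 with a germ score of 5 or more. Spo11 had 44.3 CPM (29.9 to 63.2) in Stra8-high cells and 111 CPM (84.1 to 143) in Stra8-low cells. Its log2 ratio was −1.15, and −0.90 with a germ score of 5 or more. Without the germ cells above that percentile it was −0.9995. Thinned to 5000 UMIs, 24 of 37 Stra8-high cells (64.9%) and 34 of 37 Stra8-low cells (91.9%) held Syce3. The list had a median of −0.51 and 0 genes past 2-fold higher. Sycp2 (−0.91) and 4930447C04Rik (−0.91) lay below 0 on the log2 scale, and Tex12 (0.40), Syce1 (0.40) and Syce2 (0.32) above it, all short of 2-fold. Sycp3 had 1313 CPM in Stra8-high and 1417 CPM in Stra8-low cells. Of 22 recombination genes 1 (Psmc3ip, −1.01, and −0.83 without the 6 cells) was past 2-fold lower and 0 higher, with a median of −0.30. Of 12 cohesin and attachment genes 2 were higher (Rec8 and Ccdc155, also called Kash5) and 0 lower. Of the 16 piRNA, 19 oocyte and 19 apoptosis genes only 13, 4 and 12 passed the filter. Of those, 0 were past 2-fold in either direction, which says little for the 4 oocyte genes. Aldh1a1, Gja1 and Fosb were the only genes past 2-fold of the retinoic acid, contact and early response lists, all higher. Over the 66 germ cells without high markers of other types Aldh1a1 had 6 UMIs in Stra8-high and 2 in Stra8-low cells, Gja1 0 in both, and Fosb 11 and 1, so Aldh1a1, at a log2 ratio of 0.49, was short of 2-fold there, and Fosb, at 1.25, rested on few UMIs. In G2 and M phase Ube2c was past 2-fold higher (1.09; 0.61 without the 6 cells) and Cenpe lower.

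The largest lower values came from single cells. Ngp, S100a8 and S100a9, granule and calcium-binding proteins of neutrophils, had 302 of their 351 UMIs in 1 Stra8-low cell of 25542 UMIs, and Zfp607a had 58 of 61 UMIs in 1 other. Those 4 genes therefore describe single cells, not the Stra8-low set. Pet2, Snhg9, Cep290, Nkap, Ccdc73 and Tfrc, spread over 31 to 56 germ cells, and Syce3 were also among the 12. Tfrc, the transferrin receptor, had 59.0 CPM in Stra8-high and 170.0 CPM in Stra8-low cells, and 184 CPM in globin-rich cells.

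**Figure D4:**
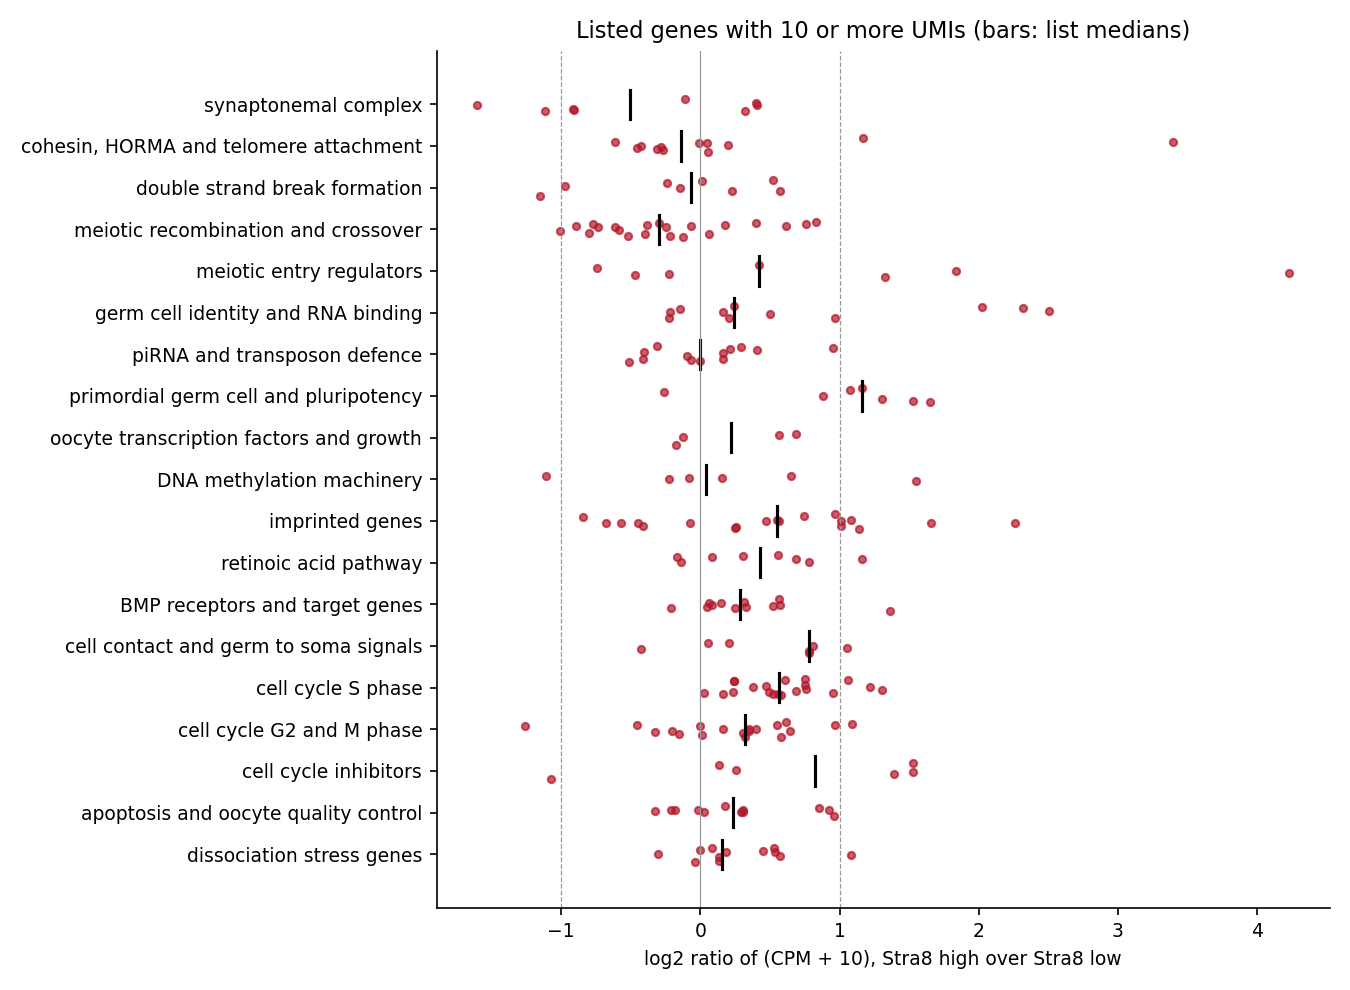
Each point is a listed gene with 10 or more UMIs over the 74 germ cells, placed by its log2 ratio of (CPM + 10) in Stra8-high over Stra8-low cells; black bars are list medians and dashed lines mark 2-fold. The primordial germ cell list has a median of 1.16 and the synaptonemal complex list −0.51, while all genes have 0.03.

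A split into 3 sets of rising Stra8 showed that not all meiotic genes ran one way. The sets were 24 cells with none, 26 with 0.330 to 5.16 per 10000 and 24 with 5.85 or more, at median depths of 12054.5, 16874 and 16030 UMIs. Syce3 was at 1256, 731 and 287 CPM in that order, and Sycp1 at 1359, 820.3 and 561 CPM, and for both genes the intervals of the 3 sets did not overlap. Smc1b also stepped down, with 2206, 1891 and 1532 CPM. Dazl stepped up, with 635, 723 and 1034 CPM, where the intervals of the sets with none and middle Stra8 overlapped.

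Tex12 was lower in cells without Stra8, with 559, 887 and 875 CPM. Prdm9 and Sycp3 were highest in the middle. Prdm9 had 99.5 CPM (66.6 to 143) without Stra8, 208 CPM (169.9 to 252) in the middle and 108 CPM (79.1 to 145) with most. Sycp3 had 1249, 1544 and 1214 CPM, and Syce2 689.6, 1010.2 and 841 CPM. Spo11 was highest without Stra8, at 141 CPM (101 to 191), against 54.6 CPM (36.0 to 79.4) in the middle and 48.2 CPM (29.4 to 74.4) with most. Rec8 had 0, 12 and 82 UMIs.

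**Figure D5:**
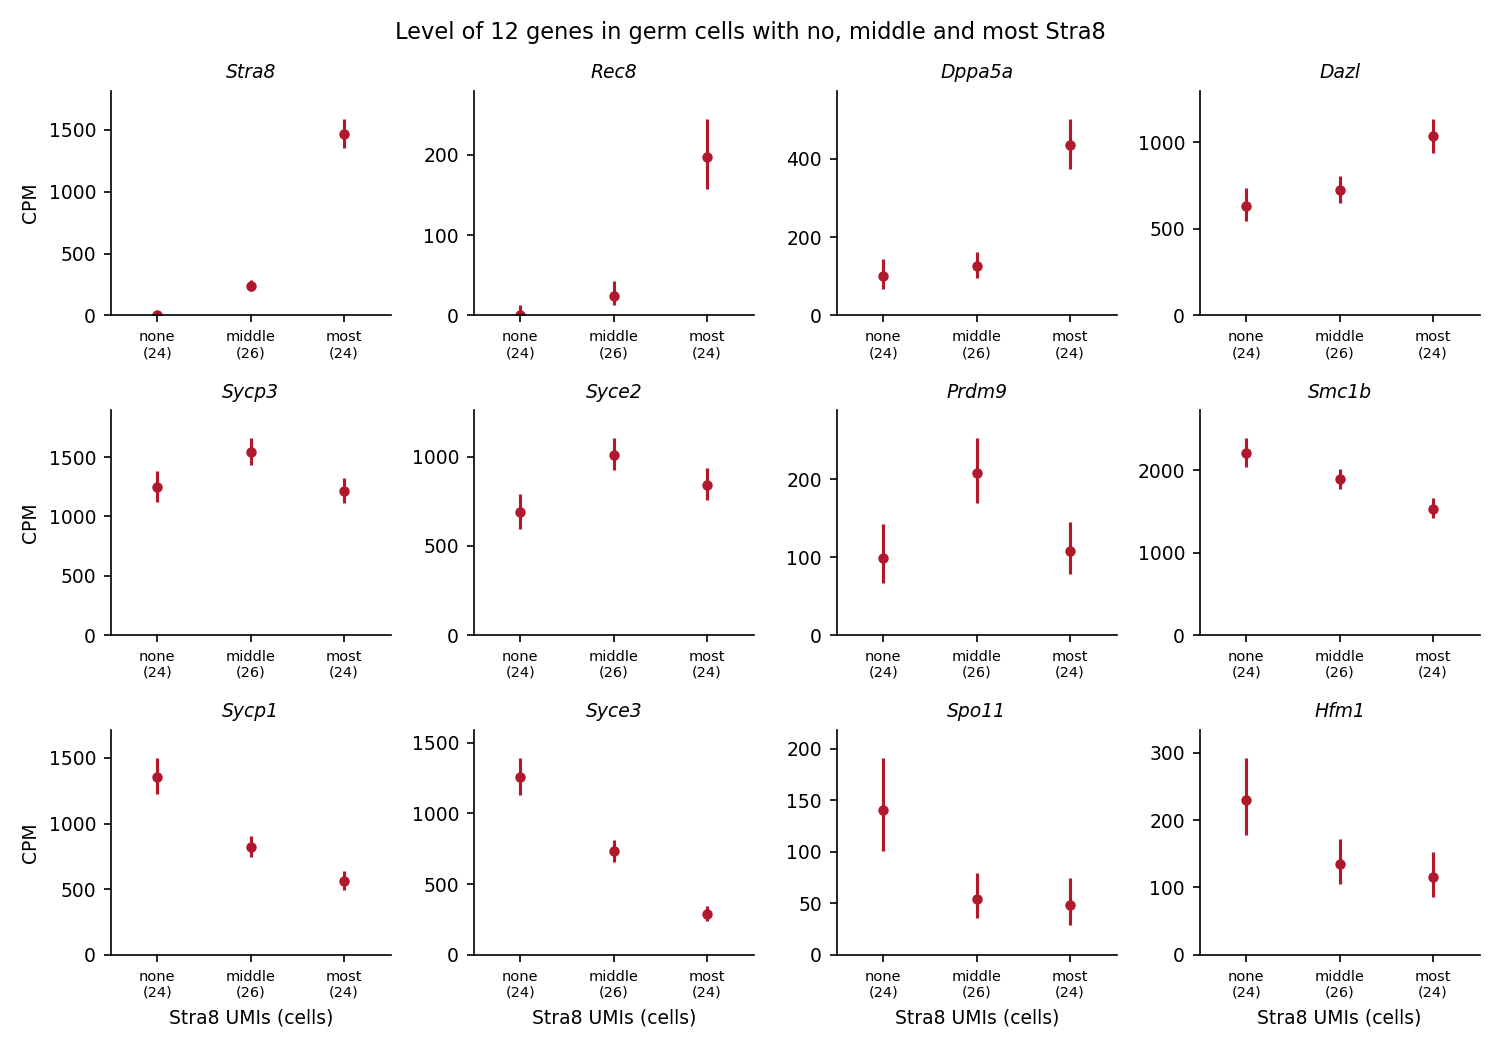
Level of 12 genes in germ cells with 0 Stra8 UMIs (24 cells), with middle Stra8 (26) and with most Stra8 (24), as CPM of summed cells from 0; bars are exact Poisson 95% intervals. Stra8 made the sets and is shown for scale; Syce3 stands at 1256, 731 and 287 CPM from left to right, and Prdm9 is highest in the middle.

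After birth almost no cell met the rule. At postnatal day 7, 2 of 509 kept cells met the same rule (0.393%; 0.0476 to 1.41), with scores of 10.9 and 11.1 and totals of 95972 and 29619 UMIs, and at postnatal day 14 0 of 583 did, which allows up to 0.631% (Clopper-Pearson). Both cells at postnatal day 7 scored mainly through Syce2 (49 and 11 UMIs) and Dazl (36 and 18). They held 0 UMIs of Stra8, Syce3, Rec8 and Dmc1, but 101 and 17 of Zp3, 69 and 9 of Zp2 and 39 and 5 of Gdf9, genes of growing oocytes that were at 0 to 1 UMI in the 74 embryonic germ cells. Sycp3 was still present, with 168 and 92 UMIs. Over all kept cells Stra8 had 0 UMIs at both later ages. With so few cells no comparison between ages was made.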

How the data were processed

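Ovaries of 3 ages were profiled, 1 library each. The deposited matrices hold raw UMI counts per gene and barcode, made with Cell Ranger 2.1.1 on GRCm38, per the submitters' processing notes; the annotation, the strand setting and the way cells were called are, in the sources used here, not given. No barcode held fewer than 6747, 6291 or 5568 UMIs (embryonic day 16.5, postnatal days 7 and 14), so low barcodes are absent from the tables. At the 3 ages, 456 of 459, 509 of 510 and 583 of 585 barcodes held 200 or more genes. Library totals were 8994085, 8743797 and 9065595 UMIs.

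Counts of identifiers with 1 symbol were summed (108 symbols). Sums per set were scaled to CPM with exact Poisson intervals; ratios had exact conditional binomial intervals and shares Clopper-Pearson ones (Python 3.11.15, numpy 2.4.6, scipy 1.17.1, pandas 2.3.3). Genes needed 10 UMIs over both sets; past 2-fold means a log2 ratio of (CPM + 10) of at least 1 or at most −1, which understates low genes. Single-gene ratios given with an interval use CPM without the added 10. All log2 ratios, also those of single genes, include the added 10. Cells were thinned to 5000 UMIs for shares and to set a split by Stra8 (seed 1). No doublet caller was run. The scripts were tested on simulated counts. Chromosomes came from GENCODE M21, matched by identifier without version for 53274 of 53465 identifiers.

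The members, the 19 lists (273 genes) and the alternatives were chosen with earlier results of these data known. Named per comparison and direction were the 12 genes with the largest ratio, 50 or more UMIs in the higher set and intervals that do not overlap (mitochondrial, ribosomal, haemoglobin, Gm, Rik and clone symbols left out), the markers, and listed genes with most UMIs or at the ends of a list. Members of lists named beyond these, and the cells with 10 or more Dppa3 UMIs, were picked after their values were seen. Results of some genes that this rule names are not reported here.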

Additional observations from a re-analysis of the deposited data

How the results depend on the processing

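No paired analysis was possible because each age has 1 sample. The number of germ cells ran from 65 to 81 over 9 settings. The counts of genes past 2-fold between germ cells and other cells stayed within 1.5 times of 1549 and 1816 under every setting but a pseudocount of 1 CPM, which gave 2702 higher and 4394 lower. Between Stra8-high and Stra8-low cells (379 higher, 263 lower) the counts moved more: a germ score of 5 gave 229 and 416, a minimum of 50 UMIs 135 and 50, a pseudocount of 1 CPM 919 and 707, and the outer sets of Stra8 751 and 463. Any Stra8 UMI against none gave 873 higher, and leaving out the 10% of germ cells with most markers of other cell types gave 406 lower. The X-linked share of 4.50% became 4.43% at a score of 5, 4.56% at a score of 20, 4.62% without the germ cells with most markers of other cell types, 3.79% without genes 2-fold higher and 3.77% without genes past 2-fold either way. The last 2, the other cells with a score under 2, the removal of the cell with most neutrophil genes and that of the 6 cells with 10 or more Dppa3 UMIs (353 higher, 293 lower) were chosen after seeing the data. Signs reversed for genes held by single cells: under any Stra8 UMI against none, Ngp came to 3.44, S100a8 to 2.47, S100a9 to 1.45 and Zfp607a to 2.15 on the log2 scale. Split by any Stra8 UMI left after thinning to 5000 UMIs, with ratios from full counts, they came to 3.70, 2.41, 1.79 and 2.40. The median of the primordial germ cell list came to −0.030 there. Without the cell with most neutrophil genes S100a8 came to 0.22. The cause of the other changes was not tested. The planned comparison with postnatal day 7 and its alternatives were not run, since 2 cells met the rule and 5 were needed. Genes with few UMIs in 74 cells, such as Spo11 (88) and Rec8 (94), limit what can be said within the germ cells.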
